A study of Homo sapiens with 8 samples.

Results

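A group of 9 genes of interferon-induced families was followed in translating ribosome affinity purification (TRAP) RNA of a brain-metastatic breast carcinoma line: IFI6, IFI27, IFI27L1 and IFI27L2, IFI44 and IFI44L, XAF1, and SAMD9 and SAMD9L. They were taken as the rows of the deposited count table that carry these symbols. Each symbol occurred once, which gave 9 of 57445 gene rows, and all 9 passed the filter on low values (an average of 10 or more reads per library). MDA231-BrM2 is a derivative of the triple-negative line MDA-MB-231 selected for spread to the brain. In TRAP, tagged ribosomes of 1 cell type are pulled down from a mixed lysate, here with anti-GFP beads, and the polysome-associated RNA is sequenced.

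The 4 groups held 2 libraries each. Carcinoma cells depleted of connexin 43 (Cx43) with hairpin 1 and cells depleted with hairpin 2 were each kept with astrocytes for 24 h, at 1 astrocyte per carcinoma cell. Control-hairpin cells were kept with astrocytes in the same way, and control-hairpin cells without astrocytes were the last group. Cx43, encoded by GJA1, forms gap junctions, and the comparisons ask what contact with astrocytes changes in the carcinoma cells and whether Cx43 is needed for it. The series has no Cx43-depleted cells without astrocytes, so an effect of the hairpins outside coculture cannot be told apart from one within it. The species and source of the astrocytes are not given in the sources used here. The p-values rest on the spread between libraries within groups, pooled over the 4 groups and drawn toward the trend over all tested genes. The labels number the 2 libraries of a group as replicates.

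The libraries held 38219702 to 48997555 reads assigned to genes. The 9 genes had 25 to 6453 counts per library, all above the limit of 3 counts that stood at 0.0612 to 0.0785 CPM (the count scaled to the library's TMM-adjusted total). GJA1 itself had 27.8 and 27.8 CPM with hairpin 1 and 31.7 and 33.8 CPM with hairpin 2, against 65.9 and 64.7 CPM in control coculture and 51.1 and 46.3 CPM in control cells alone. It was lower with both hairpins than in control coculture by 1.11 on the log2 scale (SE 0.0609). The 9 markers of the carcinoma line summed to 4415 to 5014 CPM with the hairpins, 5215 to 5547 CPM in control coculture and 4598 to 5036 CPM in control cells alone, while ESR1, PGR and ERBB3, low in this line, summed to 2.72 to 4.65 CPM over all libraries.

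Type I interferon acts through the kinases JAK1 and TYK2 on the transcription factor complex ISGF3, which binds the interferon-stimulated response element in the promoters of target genes. Interferon gamma acts through the gamma-activated site. Most of the genes described here are known as such targets, and IFI27L1 and IFI27L2 are included as relatives of IFI27. IFI6 and IFI27 encode small hydrophobic proteins of 1 family, found on mitochondria and the endoplasmic reticulum and linked to cell survival or death. IFI44 and IFI44L are a neighbouring pair with antiproliferative and antiviral roles, XAF1 is a partner of the caspase inhibitor XIAP, and SAMD9 and SAMD9L are a neighbouring pair of large cytoplasmic proteins that restrict poxviruses and cell growth.

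Promoter sequences are shown because the 9 genes differ in their matches to the element that ISGF3 binds. All 9 matched by symbol in the RefSeq promoter table (GRCh38.p14, 250 bases before to 50 bases after the start). The core of the interferon-stimulated response element (GAAA, any 2 bases, GAAA), searched on both strands, was found in 5 of the 9 and in 3.65% of the 27305 genes with a window. The stretches that hold it follow, 5′ to 3′ on the strand of the gene, with the core, and in IFI27 the overlapping gamma-activated site, in capitals.
IFI6 (chr1:27672261-27672363, minus strand): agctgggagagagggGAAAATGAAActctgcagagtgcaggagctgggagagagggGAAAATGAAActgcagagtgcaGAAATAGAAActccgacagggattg
IFI27 (chr14:94110613-94110665, plus strand): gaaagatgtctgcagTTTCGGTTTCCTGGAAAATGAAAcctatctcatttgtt
IFI44 (chr1:78649756-78649788, plus strand): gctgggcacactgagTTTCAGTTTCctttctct
IFI44L (chr1:78620269-78620399, plus strand): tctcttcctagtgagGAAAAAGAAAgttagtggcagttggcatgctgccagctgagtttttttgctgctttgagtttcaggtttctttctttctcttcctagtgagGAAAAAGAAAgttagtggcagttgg
SAMD9 (chr7:93118091-93118130, minus strand): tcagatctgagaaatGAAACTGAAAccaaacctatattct

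IFI6 held 3 cores, a number reached by 11 genes or 0.0403% of those searched. Its first 2 cores lay 41 bases apart inside an exact repeat of 29 bases. IFI44L held 2 cores 91 bases apart, inside an exact repeat of 85 bases. IFI27 held 2 cores, 1 on each strand, with a gamma-activated site (TTCNNNGAA, in 7.88% of genes) that overlaps both, and IFI44 and SAMD9 held 1 each. At least 2 cores were present in 0.271% of genes.

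XAF1, SAMD9L, IFI27L1 and IFI27L2 held no such core. A core shorter by its first base, AAANNGAAA, which lies within every full core, was looked for after the sequences had been seen and was present in 10.6% of genes. It was found in XAF1 and SAMD9L, in capitals here, and in neither IFI27L1 nor IFI27L2. The stretch just before the start of IFI27L2 is shown beside them as an example with no match.
XAF1 (chr17:6756000-6756038, plus strand): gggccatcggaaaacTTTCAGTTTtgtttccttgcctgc
SAMD9L (chr7:93148409-93148447, minus strand): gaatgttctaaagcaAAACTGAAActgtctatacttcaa
IFI27L2 (chr14:94129605-94129704, minus strand): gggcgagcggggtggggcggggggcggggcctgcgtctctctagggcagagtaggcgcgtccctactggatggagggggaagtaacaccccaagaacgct

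A match is a run of letters and not a measured binding site, and the counts above are for 1 annotated start of each gene. A second window was listed for IFI27, IFI44 and XAF1. It held the same matches in IFI27 and IFI44 and none in XAF1. IFI6 and XAF1 lie over annotated genes on the other strand (AL445490.1 and PRAL in GENCODE 29). The library kit does not mark strand, so reads of such partners cannot be told apart from those of IFI6 and XAF1.

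**Figure D1:**
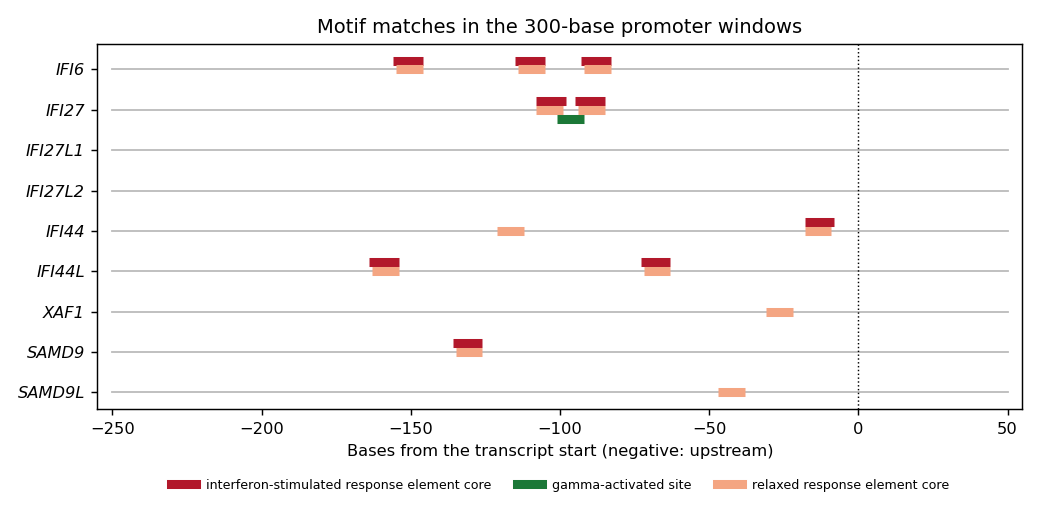
Matches of 3 motifs in the promoter window of each gene, drawn to scale in bases from the transcript start, which is the dotted line. There are 7 genes that hold a relaxed response element core, 5 of them hold the full core, IFI27 alone holds a gamma-activated site, and the lines of IFI27L1 and IFI27L2 are empty.

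Of the 9 genes, 7 were higher in control coculture than in control cells alone and lower with either Cx43 hairpin than in control coculture (edgeR's quasi-likelihood test, Benjamini-Hochberg adjusted over the 15806 tested genes, threshold 0.05). They were IFI6, IFI27, IFI44, IFI44L, XAF1, SAMD9 and SAMD9L. IFI27L1 and IFI27L2 passed in neither comparison. Among all tested genes 8.74% were called higher in control coculture than alone (0.607% by at least 2 log2 units, as all 7 members were), and 5.85% were called lower with both hairpins than in control coculture (0.285% by at least 2 log2 units, as 5 of the 7 were). For hairpin 1 and hairpin 2 taken singly 7 members were lower than in control coculture in each case, against 4.73% and 3.2% of all tested genes. The median log2 change of the 9 members was 3.02 in control coculture over control alone and −2.06 with both hairpins over control coculture, where the medians of all tested genes were −0.0026 and −0.0080. The same control coculture libraries enter both comparisons, with opposite signs.

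**Figure D2:**
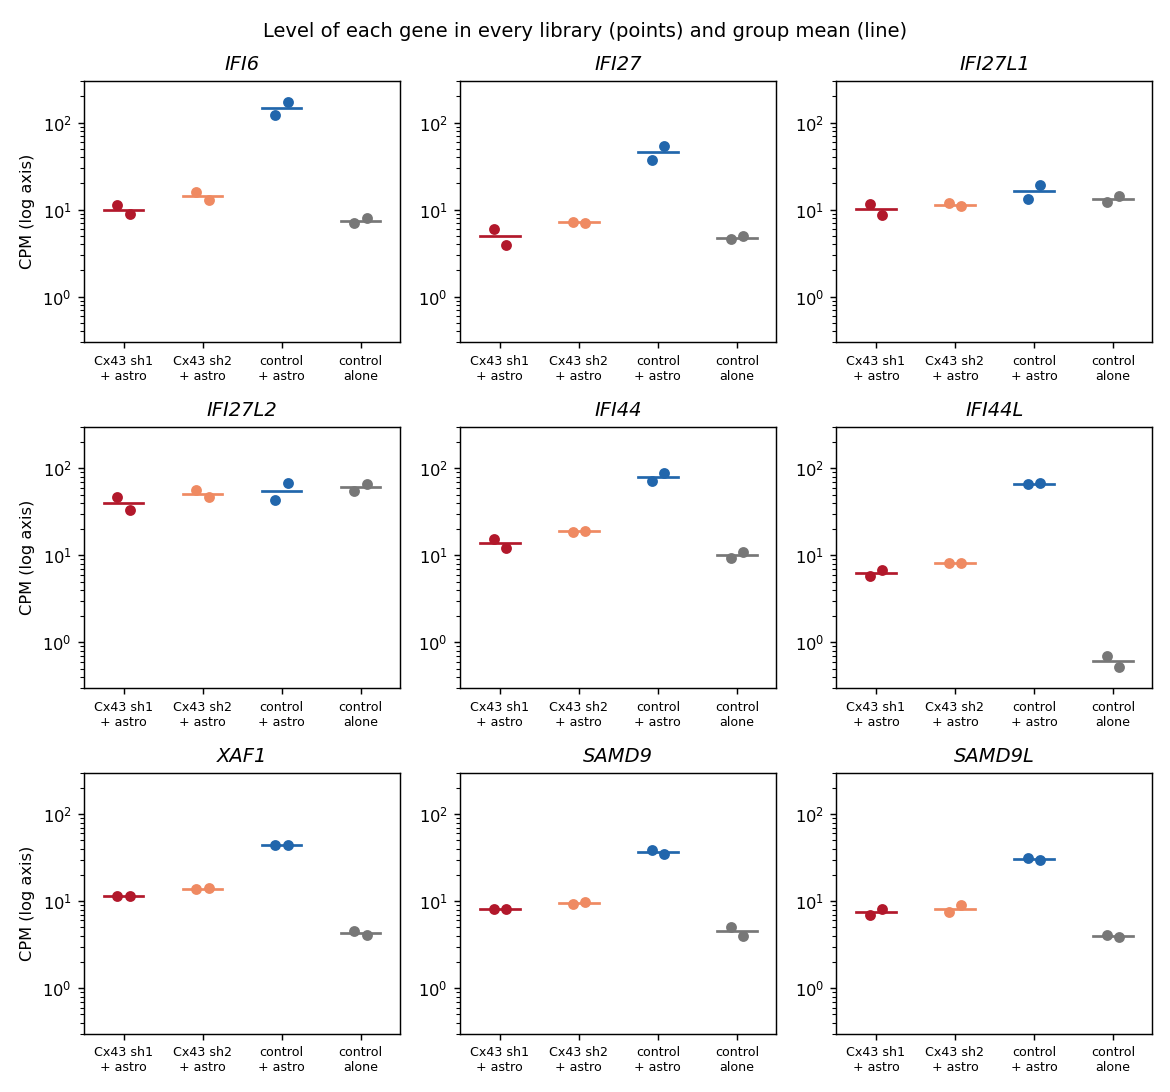
CPM of each gene on a log axis in the 8 libraries (points) with the mean of each group (line), in the order hairpin 1, hairpin 2 and control with astrocytes, and control alone. In 7 genes the control coculture libraries lie above all others, IFI44L is under 1 CPM in control cells alone, and in IFI27L2 all 4 groups lie between 33.0 and 68.3 CPM. Of all tested genes, 30% had both control coculture libraries above both of control alone, and 18.1% had all hairpin libraries below both of control coculture.

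IFI6, which is known to delay apoptosis and to protect the endoplasmic reticulum of infected cells, had 11.2 and 8.84 CPM with hairpin 1, 15.96 and 13.0 CPM with hairpin 2, 123 and 173 CPM in control coculture, and 6.97 and 7.95 CPM in control cells alone. The control coculture libraries stood apart from all others, and the 4 hairpin libraries all lay above both libraries of control cells alone. The rise in control coculture over control alone was 19.9-fold (log2 4.31, SE 0.197, adjusted p = 2.05e-06), the 19th largest of the 15806. With both hairpins the level was 12.3-fold lower than in control coculture (log2 −3.62, SE 0.146, adjusted p = 1.07e-06), the 8th largest decrease.

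IFI27, a mitochondrial and nuclear envelope protein widely used as a marker of interferon exposure in blood, had 5.99 and 3.94 CPM with hairpin 1, 7.28 and 6.94 CPM with hairpin 2, 36.8 and 54.4 CPM in control coculture, and 4.57 and 4.91 CPM alone. Here the hairpin libraries overlapped those of control cells alone. IFI27 was 9.59-fold higher in control coculture than alone (log2 3.26, SE 0.220, adjusted p = 2.76e-05) and 7.66-fold lower with both hairpins than in control coculture (log2 −2.94, SE 0.170, adjusted p = 1.18e-05). The number of IFI27 reads per IFI6 read was 0.445 to 0.535 with the hairpins, 0.298 and 0.314 in control coculture, and 0.657 and 0.618 in control cells alone, and the 3 ranges did not overlap.

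IFI27L1, a relative of IFI27 whose gene lies beside it on chromosome 14, had 11.6 and 8.69 CPM with hairpin 1, 11.9 and 10.9 CPM with hairpin 2, 13.1 and 19.4 CPM in control coculture, and 12.4 and 14.4 CPM in control cells alone. All 4 hairpin libraries lay below both control coculture libraries, as in 18.1% of all tested genes, while control coculture and control alone overlapped. The difference of control coculture over control alone was 0.28 on the log2 scale (95% interval −0.15 to 0.71, adjusted p = 0.386). With both hairpins it was −0.60 against control coculture (95% interval −0.97 to −0.22, adjusted p = 0.0570), just short of the threshold. By DESeq2 the difference of both hairpins from control coculture was called, at −0.59 (adjusted p = 0.00876), as it was with no filter on low counts (−0.58, adjusted p = 1.25e-07). The fit with no filter gave a smaller SE for this difference, 0.0961 against 0.164 in the main fit.

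IFI27L2, the third member of that cluster, was already abundant in control cells alone. It had 46.3 and 33.0 CPM with hairpin 1, 56.1 and 46.5 CPM with hairpin 2, 42.8 and 68.3 CPM in control coculture, and 54.9 and 66.0 CPM alone. Control coculture overlapped each of the other groups, while the libraries of hairpin 1 lay below those of hairpin 2 and of control cells alone. The log2 difference of control coculture over control alone was −0.12 (95% interval −0.63 to 0.39), and that of both hairpins over control coculture was −0.30 (95% interval −0.74 to 0.14). With no filter on low counts IFI27L2 was called lower than in control coculture with both hairpins (−0.29, adjusted p = 0.0103) and with hairpin 1 (−0.48, adjusted p = 5.24e-05). The difference with both hairpins was near that of the main fit, but its SE was 0.0824 against 0.194, although the groups overlapped. The IFI27 reads per IFI27L2 read were 0.119 to 0.149 with the hairpins, 0.859 and 0.796 in control coculture, and 0.0834 and 0.0744 in control cells alone.

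The spread between replicates of these 4 genes followed transcript length. Their principal transcripts have 511 to 822 bases (GENCODE 29), and genes under 1000 bases (626 of those tested) were displaced between the 2 libraries of a group. The median log2 difference of library 2 over library 1 of these short genes was −0.36 with hairpin 1, −0.10 with hairpin 2, 0.31 in control coculture and 0.16 in control cells alone, against 0.13, 0.05, −0.10 and −0.04 for genes of 4000 bases and over. In control coculture the same difference was 0.49 for IFI6, 0.56 for IFI27, 0.56 for IFI27L1 and 0.67 for IFI27L2. It was 0.31 for IFI44, with 1687 bases, and between −0.13 and 0.04 for the 4 longer genes. The share of non-unique alignments in the column totals was 26.1% in control coculture library 1 and 14.2% to 21.5% in the other 7 libraries. It was 18.5% and 18.6% in the 2 libraries of hairpin 1, and its relation to the length trend was not tested.

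**Figure D3:**
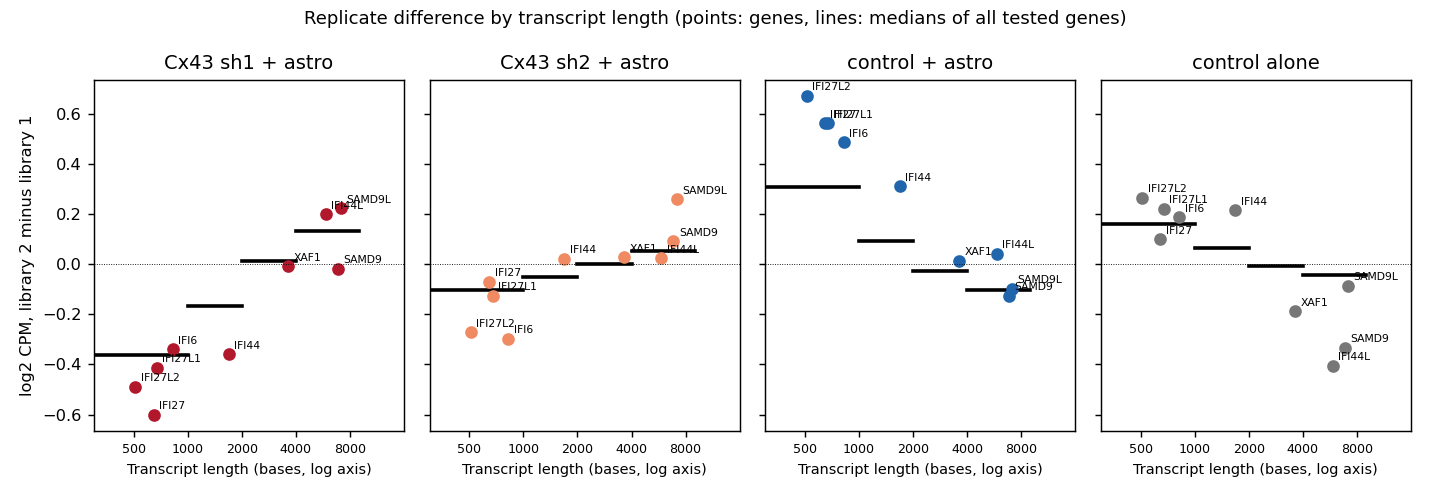
Log2 CPM of library 2 minus library 1 in each group against the length of the principal transcript (log axis), for the 9 genes (points) and as medians of all tested genes in 4 length classes (lines, the last class reaching on to the longest genes). In control coculture the 4 genes under 1000 bases lie at 0.49 to 0.67, and with hairpin 1 the same genes lie below 0.

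A fit with an offset for this length trend, added after the data had been examined, changed the call of IFI27L1 in 4 comparisons. With the offset IFI27L1 was higher in control coculture than alone by 0.42 on the log2 scale (SE 0.0799, adjusted p = 0.00617). It was lower with both hairpins than in control coculture by 0.45 (−0.45, SE 0.0699, adjusted p = 0.00293), and the log2 differences of hairpin 1 and of hairpin 2 from control coculture were −0.40 (adjusted p = 0.0150) and −0.51 (adjusted p = 0.00502). IFI27L2 stayed without a call, at 0.042 in control coculture over alone (adjusted p = 0.740) and −0.13 with both hairpins over control coculture (adjusted p = 0.198). The read ratio of IFI27L1 to IFI27L2, 2 genes of like length, was 0.212 to 0.263 with the hairpins, 0.306 and 0.284 in control coculture, and 0.225 and 0.219 in control cells alone, so both control coculture libraries were above the other 6.

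IFI44, a cytoplasmic protein described with microtubule-like aggregates, had 15.5 and 12.05 CPM with hairpin 1, 18.8 and 19.1 CPM with hairpin 2, 71.7 and 89.0 CPM in control coculture, and 9.43 and 10.96 CPM in control cells alone. The control coculture libraries were highest, and the 4 hairpin libraries lay between them and the control cells alone. It was 7.87-fold higher in control coculture than alone (log2 2.98, SE 0.147, adjusted p = 3.49e-06) and 4.97-fold lower with both hairpins than in control coculture (log2 −2.31, SE 0.113, adjusted p = 3.67e-06).

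IFI44L, its paralogue and an interferon target used in blood signatures of viral infection, had 5.85 and 6.74 CPM with hairpin 1, 8.08 and 8.21 CPM with hairpin 2, 65.8 and 67.8 CPM in control coculture, and 0.704 and 0.520 CPM in control cells alone. The 25 and 30 reads in the libraries of control cells alone were the lowest counts of any of the 9 genes. The rise in control coculture over control alone was 110-fold (log2 6.78, SE 0.132, 95% interval 6.48 to 7.08, adjusted p = 1.42e-08) and ranked 4th among all tested genes. With both hairpins it was 9.33-fold lower than in control coculture (log2 −3.22, SE 0.0754, adjusted p = 2.92e-08), the 15th largest decrease.

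The 2 genes of the pair lie next to each other on chromosome 1, and their balance moved between the groups. There were 0.378 to 0.559 IFI44L reads per IFI44 read with the hairpins, 0.918 and 0.762 in control coculture, and 0.0746 and 0.0474 in control cells alone. The 3 ranges did not overlap.

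XAF1, which binds XIAP and counters its block of caspases, had 11.5 and 11.4 CPM with hairpin 1, 13.7 and 14.0 CPM with hairpin 2, 44.1 and 44.5 CPM in control coculture, and 4.60 and 4.03 CPM in control cells alone. The replicates lay close together and no groups overlapped. XAF1 was 10.3-fold higher in control coculture than alone (log2 3.36, SE 0.0861, adjusted p = 4.72e-08) and 3.51-fold lower with both hairpins than in control coculture (log2 −1.81, SE 0.0630, adjusted p = 4.04e-07).

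SAMD9, a restriction factor for poxviruses that can halt protein synthesis, had 8.21 and 8.11 CPM with hairpin 1, 9.16 and 9.78 CPM with hairpin 2, 38.3 and 35.1 CPM in control coculture, and 5.04 and 3.99 CPM in control cells alone. SAMD9L, its neighbour on chromosome 7, had 6.92 and 8.09 CPM with hairpin 1, 7.50 and 8.98 CPM with hairpin 2, 31.7 and 29.6 CPM in control coculture, and 4.13 and 3.89 CPM alone. In both genes the hairpin libraries lay between the other groups without overlap with either. The rise in control coculture over control alone was 8.14-fold for SAMD9 (log2 3.02, SE 0.113, adjusted p = 6.09e-07) and 7.65-fold for SAMD9L (log2 2.94, SE 0.119, adjusted p = 9.98e-07). With both hairpins SAMD9 was 4.17-fold lower and SAMD9L 3.90-fold lower than in control coculture (log2 −2.06 and −1.96, adjusted p = 1.23e-06 and 2.29e-06).

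The balance within the SAMD9 pair stayed within a narrow range. There were 0.818 to 0.997 SAMD9L reads per SAMD9 read over all 8 libraries, with overlap among the groups. Of the 36 pairs of members these 2 genes were the most alike in their pattern, with a root-mean-square distance of gene-centred log2 CPM of 0.108 over the 8 libraries, against 1.41 for IFI44 and IFI44L. The annotated transcripts of SAMD9 and SAMD9L share 3 windows of 30 bases, those of IFI27 and IFI27L2 share 2, and those of IFI44 and IFI44L share 0. Windows were taken at every position, so shared windows may overlap within 1 longer run.

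Cx43-depleted cells in coculture were also set against control cells alone, a comparison in which the hairpins and the astrocytes differ together. With both hairpins in coculture over control cells alone, 6 of the 9 members were called higher, where 10.8% of all tested genes were. IFI44L was 11.7-fold higher (log2 3.55, SE 0.137, adjusted p = 1.16e-05), and XAF1 was 2.93-fold higher (log2 1.55, SE 0.0795, adjusted p = 2.77e-05). SAMD9 rose 1.95-fold (adjusted p = 9.45e-04) and SAMD9L 1.96-fold (adjusted p = 0.00128). Smaller rises were called for IFI6 at 1.61-fold (adjusted p = 0.0287) and for IFI44 at 1.58-fold (adjusted p = 0.0122).

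These 2 smaller calls did not hold in every fit with 1 library left out, though each rise kept its sign. The IFI6 difference was 0.69 on the log2 scale with all libraries. Its call was lost without library 1 or library 2 of hairpin 2 (0.61 and 0.76) and without control alone library 1 or library 2 (0.59 and 0.78). The IFI44 difference was 0.66 with all libraries. Its call was lost without hairpin 2 library 2 (0.66) and without control alone library 1 or library 2 (0.55 and 0.77). IFI27 differed by 0.32 on the log2 scale (95% interval −0.15 to 0.80, adjusted p = 0.298), and with the length offset by 0.61 (adjusted p = 0.00198), a call only there and with no filter on low counts. IFI27L1 differed by −0.32 (95% interval −0.69 to 0.06) and IFI27L2 by −0.42 (95% interval −0.86 to 0.01). With no filter on low counts both were called lower, IFI27L1 at −0.32 (adjusted p = 0.00877) and IFI27L2 at −0.43 (adjusted p = 6.10e-06). These differences were close to those of the main fit, but the SE of IFI27L2 was 0.0816 against 0.192.

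**Figure D4:**
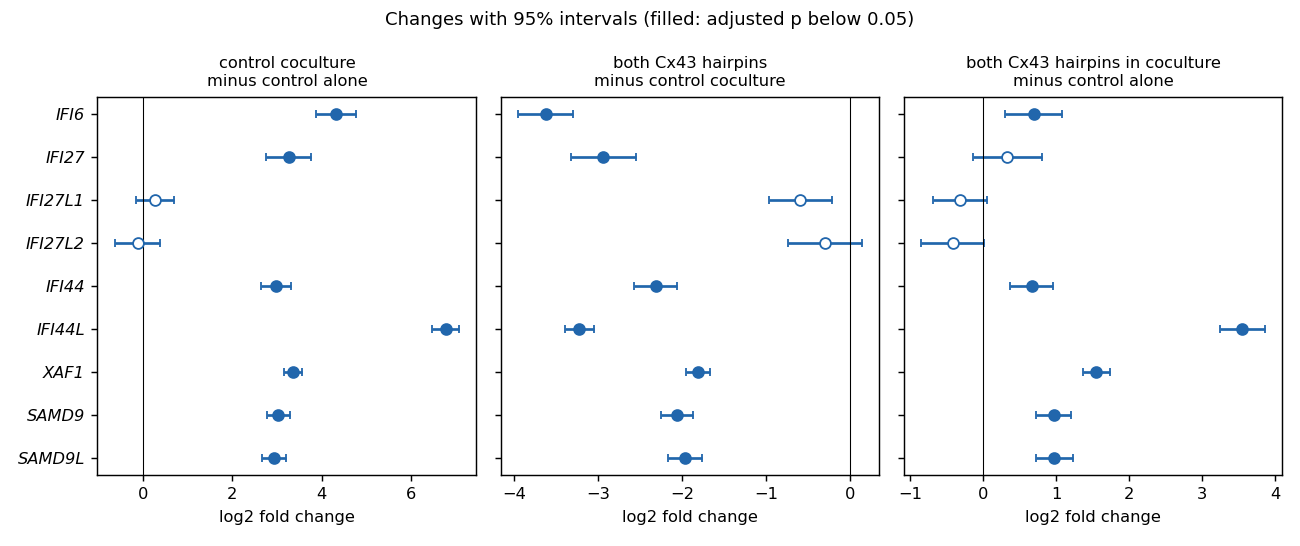
Log2 fold changes with 95% intervals of the 9 genes in 3 comparisons, with a filled symbol where the adjusted p was below 0.05. IFI44L shows the largest rise of the 9 over control cells alone, at 6.78 in control coculture and 3.55 with the hairpins, and IFI27L1 and IFI27L2 have open symbols in all 3 panels.

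The hairpins were compared with each other as well. Hairpin 2 libraries exceeded those of hairpin 1 without overlap in 7 of the 9 genes, IFI27L1 and SAMD9L being the exceptions, while 18.2% of all tested genes lay higher with hairpin 2 without overlap and 19.2% lower. The log2 differences of hairpin 2 over hairpin 1 ran from 0.14 for SAMD9L to 0.53 for IFI6 (95% interval 0.10 to 0.96), and none was called (adjusted p = 0.705 to 0.822). Of all tested genes 5, or 0.0316%, were called between the hairpins by edgeR's quasi-likelihood test, 18 by DESeq2, and 1084 had an unadjusted p under 0.05. Genes under 1000 bases had a median log2 difference of 0.24 in the same comparison, and with the length offset the difference of IFI6 was 0.29 and that of IFI27L1 was −0.11. GJA1 averaged 32.7 CPM with hairpin 2 and 27.8 CPM with hairpin 1.

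Per kilobase of principal transcript, the order of the 9 genes differed between the groups. In control coculture IFI6 led with a mean of 180 RPKM (CPM divided by the length in kilobases, range 150.2 to 210.7), followed by IFI27L2 with 109 RPKM (83.8 to 134), IFI27 with 70.8 RPKM (57.1 to 84.4), IFI44 with 47.6 RPKM (42.5 to 52.8) and IFI27L1 with 24.1 RPKM (19.5 to 28.8). XAF1 had 12.2 RPKM, IFI44L 11.4 RPKM, SAMD9 5.35 RPKM and SAMD9L 4.30 RPKM. Of the neighbours in this order, IFI27L2 and IFI27 overlapped.

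In control cells alone IFI27L2 led with 118 RPKM, and IFI27L1 followed with 19.9 RPKM. IFI6 had 9.07 RPKM, IFI27 7.36 RPKM, IFI44 6.04 RPKM, XAF1 1.19 RPKM, SAMD9 0.659 RPKM, SAMD9L 0.562 RPKM and IFI44L 0.104 RPKM. IFI44L was thus the lowest of the 9 in control cells alone and the 7th in control coculture, and with the hairpins it was close to SAMD9 and SAMD9L, with 1.07 RPKM for hairpin 1 and 1.39 RPKM for hairpin 2. In polysome-associated RNA a change in the amount of an mRNA and a change in its share on ribosomes cannot be told apart, nor can fewer responding cells and less RNA per cell.

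A list of 50 further interferon-stimulated genes, chosen with earlier results of these data known, moved in the same directions. All 50 were tested, and 50 were called higher in control coculture than alone with a median log2 change of 2.52. With both hairpins 50 were called lower than in control coculture, with a median of −1.99. Of all tested genes 8.74% were called higher in the former comparison and 5.85% lower in the latter. The same control coculture libraries enter both counts. The 2′-5′ oligoadenylate synthetase OAS2 had a mean of 29.8 CPM with both hairpins, 401 CPM in control coculture and 11.3 CPM in control cells alone, and MX1, a dynamin-like antiviral GTPase, had 10.95 CPM with both hairpins, 154 CPM in control coculture and 2.29 CPM in control cells alone. With both hairpins over control cells alone 35 of the 50 were called higher and 0 lower, with a median of 0.52. In that comparison 10.8% of all tested genes were called higher.

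Of 14 genes of interferon signalling, 10 were called higher in control coculture than alone (median 0.54), where 8.74% of all tested genes were. With both hairpins 6 were called lower and 1 higher than in control coculture (median −0.15), where 5.85% of all tested genes were called lower. The log2 change with both hairpins over control coculture was −1.33 for STAT2, a subunit of ISGF3, −0.92 for IRF2, a repressor of interferon target genes, and −0.61 for the activator IRF1 (all 3 called). SOCS1, a feedback inhibitor of JAK kinases, rose by 1.10 in control coculture over control alone (adjusted p = 3.08e-05).

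Among 21 genes around XAF1 and IFI6 in apoptosis (inhibitors, caspases and BCL2 relatives), 20 were tested. In control coculture over control alone 3 were called higher and 1 lower, with a median of 0.05. Among these, the pore-forming BAK1 changed by 0.40, and the inhibitors BIRC3 by 0.23 and BIRC5 by −0.25. With both hairpins over control coculture 4 were called lower and 0 higher, among them BIRC3 at −0.47, the nuclear receptor NR4A1 at −0.58 and BAK1 at −0.27. Of all tested genes 8.74% were called higher in the former comparison and 5.85% lower in the latter. With both hairpins over control cells alone 10.8% of all tested genes were called higher, 1707 of the 2709 called in either direction. Of the list, 1 was called higher and 2 lower there. The 1 called higher was XIAP, the partner of XAF1, by 0.37 (adjusted p = 0.0109).

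For each member the 3 genes of most like pattern were looked up, by root-mean-square distance of gene-centred log2 CPM over the 8 libraries. The other members were left out of this search. Outside the gene lists, clone-based, antisense, open reading frame and noncoding RNA symbols were also left out. So were all unlisted symbols that end in P or in P and digits, which takes out some protein-coding genes. IFI6 was closest to the ubiquitin-like ISG15 at 0.216, with IFIT3 and OASL next, and IFI27 to IFITM1 at 0.169, with TNFSF10 and ISG15 next. IFI44 was closest to PLSCR1 at 0.142, then to the RNA sensors DDX58 and DHX58. XAF1 was closest to PARP9 at 0.182. SAMD9 and SAMD9L both had HERC6, TRIM22 and AIM2 as their 3 nearest outside the members, with HERC6 at 0.0825 and 0.139. The distance between SAMD9 and SAMD9L was 0.108. Among the genes searched IFI44L had no near neighbour, since the closest, the adhesion molecule VCAM1, was at 0.434 and MX1 at 0.535. IFI27L1 was closest to ZNF165 at 0.0678, then to H2AFJ and the proteasome activator subunit PSME2, and IFI27L2 to PET100, RPS16 and NDUFA2, genes of respiration and the ribosome, at 0.0446 to 0.0533. These distances describe 8 libraries that fall into 4 groups and share the length trend given above.

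Genes beside the members changed less than the 7 called members in control coculture over control alone and with both hairpins over control coculture. Of 20 protein-coding neighbours, taken as the 2 nearest on each side, 13 were tested. In control coculture over control alone 2 were called higher, where 8.74% of all tested genes were. They were PTGFR at 0.67 and LPHN2 at 0.46 on the log2 scale, on either side of the IFI44 pair. IFI44L and IFI44 changed by 6.78 and 2.98. LPHN2 was the second gene out on its side, and the nearer ELTD1 was tested without a call. With both hairpins over control coculture 1 neighbour was called lower, DDX24 beside IFI27L1 at −0.30, where 5.85% of all tested genes were called lower. PTGFR and LPHN2 were at 0.10 and −0.10 without a call. The 4 neighbours of XAF1 had too few counts to be tested. CDK6, a cell cycle kinase beside the SAMD9 pair, was at 0.10 in control coculture over control alone (adjusted p = 0.542).

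Markers of other cells were read beside these results. The 12 astrocyte markers summed to 224 to 237 CPM with the hairpins, 268 to 272 CPM in control coculture and 226 to 229 CPM in control cells alone. Most of each sum came from GLUL, which had 162 to 170 CPM with the hairpins, 196 and 199 CPM in control coculture and 173 and 174 CPM in control cells alone. Of the 9 tested, 4 were called higher in control coculture than alone, 0 lower and 5 neither, where 8.74% of all tested genes were called higher. The 4 were GFAP at 0.62, SLC1A3 at 0.89, NTRK2 at 0.60 and SOX9 at 0.35. With both hairpins 2 were called lower than in control coculture, SLC1A3 at −0.48 and GLUL at −0.26, where 5.85% of all tested genes were called lower. GFAP, the intermediate filament of astrocytes, averaged 14.3 CPM with both hairpins, 13.3 CPM in control coculture and 8.66 CPM in control cells alone. The 8 microglia and macrophage markers summed to 3.06 to 4.14 CPM with the hairpins, 5.31 to 5.58 CPM in control coculture and 2.89 to 3.66 CPM alone, with AIF1 and TYROBP at 0 in every library. Both tested markers of this list were called higher in control coculture than alone, CSF1R at 1.16 and CD68 at 0.61, and CD68 was called lower with both hairpins than in control coculture, at −0.84. The endothelial, oligodendrocyte and neuron lists had 2 tested genes each, and in control coculture over control alone 1 of them, the endothelial receptor KDR, was called higher (0.45 on the log2 scale). The part of RNA from other cells in the changes of the 9 members was not tested.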

How the data were processed

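The deposited table holds whole-number read counts per gene. Its title calls the values normalized, but they were treated as raw, since every integer from 1 to 60 occurs in each of the 8 columns and their totals differ. The submitters' processing notes name TopHat2, HTSeq, DESeq2 and the build hg19, without versions or roles. Which annotation, counting mode and strand setting were used is not given in the sources used here. The 5 counter entries that name no gene (27.1% to 37.4% of a column's total) were left out. Genes averaging 10 or more reads per library were tested with edgeR 4.0.16 (quasi-likelihood, TMM factors 0.975 to 1.03, all 8 libraries in 1 fit of 4 group means). A gene was called at a Benjamini-Hochberg adjusted p below 0.05. Alternatives used DESeq2 1.42.0, limma-voom 3.58.1, other filters and scaling, a replicate block, left-out libraries and a length offset (a loess of each library's log2 deviation on length, for the 83.9% of tested genes with a GENCODE 29 principal transcript). Scripts were tested on simulated data.

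The members and gene lists were chosen with earlier results of these data known. The text names all members, GJA1, up to 4 genes per list with the smallest p in a comparison, neighbours, and, among the genes searched, the 3 nearest each member in pattern. Protein sequences were not used here, and an alignment of the families was not run. Some genes of these lists are not reported here by name.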

Additional observations from a re-analysis of the deposited data

How the results depend on the processing

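The 7 members called in control coculture over control alone, and in both hairpins, hairpin 1 and hairpin 2 over control coculture, were called under all 16 alternatives in each of these comparisons. Of 864 recomputed results 824 kept direction and side of the threshold, 23 gained a call, 8 lost one and 9 changed sign. Leaving out 1 library at a time gave 7 to 7 called members for control coculture over alone, 7 to 8 for both hairpins, 7 to 8 for hairpin 1 and 7 to 7 for hairpin 2 over control coculture, 4 to 6 for both hairpins over control alone and 0 to 0 between hairpins. With no filter on low counts 4 members were called between the hairpins, and the cause was not tested. In that fit the SE of IFI6 between the hairpins was 0.108, against 0.190 in the main fit. The replicate numbers did not pair the samples (correlations of deviations from −0.385 to 0.199). The replicate block left 7, 7, 7, 7, 5 and 0 called members in the 6 comparisons. Its 1 change was IFI6 with both hairpins over control alone, at 0.69 (adjusted p = 0.0591).

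Changes of sign concerned IFI27L1 and IFI27L2, without a call on either side. IFI27L2 in control coculture over alone was 0.042 with the length offset, −0.51 to 0.18 with 1 library left out (0.18 without control coculture replicate 1, 0.011 without control alone replicate 2). IFI27L2 over control coculture was −0.60 to 0.084 for both hairpins and −0.41 to 0.27 for hairpin 2, highest without control coculture replicate 2 and, for hairpin 2, at 0.014 without hairpin 2 replicate 2. IFI27L1 in control coculture over alone was −0.050 to 0.53, lowest without control coculture replicate 2. Between hairpins it was −0.11 with the length offset and −0.028 to 0.38 with 1 library left out, lowest without hairpin 1 replicate 2. The cause was not tested. IFI27L1 with both hairpins over control coculture was called without hairpin 1 replicate 1 (−0.71, adjusted p = 0.0238) and without control coculture replicate 1 (−0.85, adjusted p = 0.0232).

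Counts over all tested genes, on which the background shares rest, moved more. They were 1844 for control coculture over alone (738 to 2924 over the alternatives), 1457 for both hairpins (346 to 2492), 1236 for hairpin 1 (233 to 2407) and 658 for hairpin 2 (150 to 1536) over control coculture, 2709 for both hairpins over control alone (573 to 4723) and 5 between hairpins (0 to 304). Depth was not the limit for the 7 called members. For IFI27L1 and IFI27L2 the 95% intervals in the report give the limit.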
